A study of Mus musculus with 8 samples.

Results

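Cytochrome c oxidase, or complex IV, is the last enzyme of the mitochondrial respiratory chain, which passes electrons from cytochrome c to oxygen and pumps protons across the inner membrane. Its catalytic core (mt-Co1, mt-Co2 and mt-Co3) is made inside mitochondria, the surrounding subunits are made from nuclear genes and imported, and a further group of nuclear proteins inserts the heme and copper and joins the parts. The genes described here were every gene in the deposited tables whose symbol starts with Cox and a digit, together with Sco1, Sco2 and Surf1, without 2 symbols that contain "-ps". This gave 32 of 55401 genes, 19 structural subunits (the Cox4 to Cox8 symbols) and 13 assembly factors (Cox10 and above, Sco1, Sco2 and Surf1).

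RNA was measured in AML12, a line of mouse hepatocyte origin, in 4 control dishes and in 4 dishes kept for 1 h under Opti-ELF-WMF, a weak pulsed magnetic field with 4 ms pulses, a peak of 100 mG and a frequency that climbed from 1 to 8 Hz and then started again. The control dishes were cultured without the field, in a separate incubator of the same type, so that the incubator and the field cannot be told apart. All cells came from 1 line, and the study's methods describe control and exposed cells of an experiment as 1 batch. The sample labels number the samples of each group from 1 to 4 without saying that they are separate cultures. Each sample is called a dish here because the study counts culture dishes in its other assays of these cells, and p-values measure only the spread between these samples, which may be technical. The values are TPM, in which transcript abundance is corrected for length and every dish is set to the same total of 1000000, so that the sequencing depth is unknown and no counting error is given.

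Of 12 hepatocyte markers, 9 were at 1 TPM or more in every dish, among them Hnf4a at 180.3 to 218 TPM and Alb at 46.1 to 58.2 TPM, while Apoa2 and Cps1 were at or near 0. The summed level of the 12 was 4637 to 4859 TPM in the control dishes and 4927 to 5176 TPM in the exposed dishes, most of it Krt8 and Krt18, which are keratins of simple epithelia in general. Of the secreted hepatocyte products, Alb (mean 55.1 TPM in control and 49.7 TPM in exposed dishes), Ttr (358 and 348 TPM) and Apoa1 (4.54 and 3.77 TPM) had lower means in the exposed dishes, as had Afp (1.03 and 0.92 TPM), and Serpina1a a higher one (5.66 and 5.95 TPM). Biliary markers such as Krt19 were also present (4 of 5 at 1 TPM or more, summed level 1583 to 1683 TPM in control and 1606 to 1724 TPM in exposed dishes). Of 6 fibroblast markers only Vim was at 1 TPM or more in every dish, and Col1a1 was at 0.3 to 1.2 TPM (summed level 1306 to 1403 against 1382 to 1509.8 TPM), and the endothelial markers were at 0.08 TPM or less in sum. Of 3 leukocyte markers Cd68 was detected (summed level 1.59 to 2.31 against 1.15 to 1.77 TPM), Ptprc was at 0.2 TPM or less and Adgre1 was listed at 0. The part of these marker levels in the differences below was not tested. In RNA from whole dishes, fewer cells of a type and less RNA per cell cannot be told apart.

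Of the 19 structural subunits 10 ranked within the highest 616 of the 12122 tested genes by mean TPM, while Cox7a2l was at rank 1607, Cox7a1 at rank 8590 and the other 7 lay below 1 TPM. The summed level of the structural subunits was 5628 ± 108 TPM (SD, n = 4) in the control dishes and 5791 ± 105 TPM (SD, n = 4) in the exposed dishes, between 0.55% and 0.588% of all TPM in each dish. The summed level of the assembly factors was 494 ± 10.2 TPM (SD, n = 4) in the control and 488 ± 6.9 TPM (SD, n = 4) in the exposed dishes, which is 8.26% to 8.9% of the structural sum. Both sums overlapped between the groups.

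**Figure D1:**
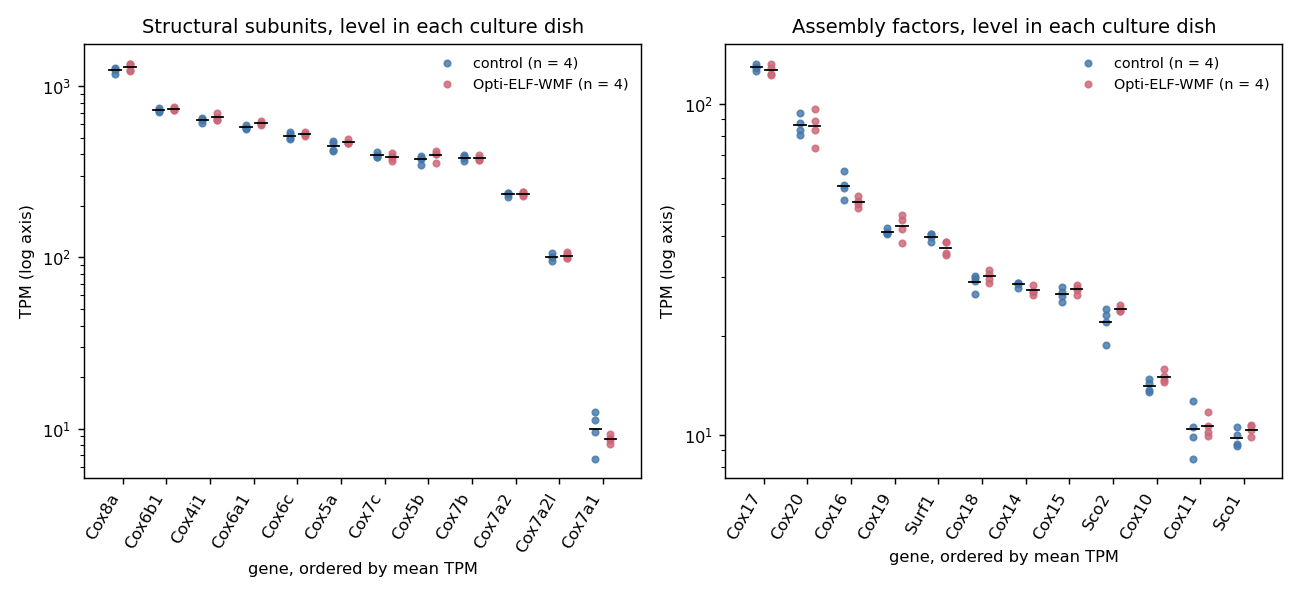
Level of the 24 tested genes in each culture dish, in TPM on a log axis, with structural subunits on the left and assembly factors on the right. Points are dishes (4 control, 4 Opti-ELF-WMF) and black lines are group means. Structural subunits other than Cox7a1 lie between 95.5 and 1351 TPM, most assembly factors below 100 TPM, and the groups overlap for every gene.

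Cox8a, a small membrane-spanning subunit, was the most abundant gene of the group (chr19:7215153-7217616, minus strand). Its level was 1276, 1244, 1176 and 1257 TPM in the control dishes and 1231, 1341, 1242 and 1351 TPM in the exposed dishes. Exposed dishes 2 and 4 lay above all control dishes, and the others lay within the control range. The log2 difference was 0.06 (standard error 0.04, adjusted p = 0.501, limma, n = 4 per group). It was 0.04 without control dish 3 or without exposed dish 4, and 0.02 to 0.03 with the libraries rescaled.

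Cox6b1, a subunit on the intermembrane side of the enzyme, was second, with 749, 725, 709 and 716 TPM in the control dishes and 740.4, 751, 728 and 720.3 TPM in the exposed dishes (chr7:30616861-30626151, minus strand). The ranges were nearly the same in the 2 groups, and the 95% interval of the log2 difference ran from -0.04 to 0.08. Cox4i1, the largest of the nuclear subunits, was at 645, 655, 609 and 632 TPM in the control dishes and at 693, 658, 635 and 637 TPM in the exposed dishes (chr8:120668222-120674207, plus strand). Exposed dishes 1 and 2 were above every control dish, and the log2 difference of 0.05 had a 95% interval from -0.03 to 0.12 and was 0.02 without exposed dish 1.

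The order of mean levels then ran through Cox6a1 (589.8 TPM), Cox6c (519 TPM), Cox5a (459 TPM), Cox7c (390.5 TPM), Cox5b (384 TPM), Cox7b (381 TPM), Cox7a2 (235 TPM), Cox7a2l (101 TPM) and Cox7a1 (9.36 TPM). Neighbours were separated, with no dish of one reaching the level of the next, except for Cox4i1 and Cox6a1, for Cox7c and Cox5b, and for Cox5b and Cox7b, whose ranges over the 8 dishes overlapped. Cox8a stood 5.39-fold above Cox7a2 in level on this per-length scale. Cox7a2l, kept here by its symbol, is a related protein that links complex IV to complex III.

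Several subunits exist as paralogues, one form used in most tissues and the other in heart, skeletal muscle, testis or lung. Nearly all TPM was listed under the general form. Cox4i1 made up 99.9% to 100.0% of the Cox4i TPM, with Cox4i2, the lung and oxygen-sensitive form, at 0 to 0.65 TPM. Cox6a2, the heart and muscle form, was at 0 to 0.42 TPM, and Cox6b2, the testis form, at 0 to 0.29 TPM.

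The muscle form Cox8b, the testis forms Cox8c and Cox7b2, and Cox6c2 were listed at 0 in all 8 dishes. Cox6c2 is annotated as a processed pseudogene, as is Cox20b, which was at 0 except for 0.43 TPM in control dish 3 and 0.37 TPM in exposed dish 1. These 8 genes (7 structural, 1 assembly factor) fell below the limit of 1 TPM in 4 dishes and were not tested. A value of 0 in these files can also come from annotation or read assignment, and Pet117, a widely used assembly gene of the enzyme, was listed at 0 as well. The 24 genes that passed the limit are not the whole family.

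Cox7a1, the heart and muscle form of Cox7a2, was the exception among the paralogues. It was detected in every dish, at 6.69, 9.52, 12.5 and 11.2 TPM in the control dishes and at 8.13, 8.84, 8.63 and 9.33 TPM in the exposed dishes (chr7:30184144-30186078, plus strand). All exposed dishes lay within the control range, which was the wider of the 2, and the log2 difference was -0.14 (standard error 0.15, adjusted p = 0.699, limma, n = 4 per group). Its share of the Cox7a TPM was 4.08% ± 1.03 (SD, n = 4) in the control and 3.59% ± 0.264 (SD, n = 4) in the exposed dishes. The value depended on single control dishes. Without control dish 1 the log2 difference was -0.31 (unadjusted p = 0.00728, adjusted p = 0.196, limma), without control dish 4 it was -0.08, and without control dish 3 it was -0.03 (adjusted p = 0.942, limma).

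Among the assembly factors, Cox17, the copper chaperone that hands copper to Sco1 and Cox11, was the most abundant (chr16:38346991-38352763, plus strand). It was at 129, 126, 129.7 and 132 TPM in the control dishes and at 123, 132, 128 and 123 TPM in the exposed dishes. Exposed dishes 1 and 4 were below every control dish and the others were within the control range. The log2 difference was -0.03 (95% interval from -0.10 to 0.04). Its unadjusted p (limma) was below 0.05 in 4 of 13 alternatives that kept all dishes and in 0 of 8 that left out 1 dish.

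Cox20, which holds newly made mt-Co2 during its maturation, was at 87.8, 93.9, 83.8 and 80.7 TPM in the control dishes and at 96.9, 73.7, 83.8 and 88.8 TPM in the exposed dishes (chr1:178319130-178322693, plus strand). The exposed dishes spread on both sides of the controls, and the log2 difference of -0.02 had a 95% interval from -0.19 to 0.16. Of its exon bases 91.1% lie opposite those of Hnrnpu, a gene at 470.1 TPM on the other strand. The strand setting of the read counting is not given in the sources used here, so the split between these 2 genes is uncertain.

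The same holds to a lesser degree for Cox11, which shares 48.3% of its exon bases with Tom1l1 on the opposite strand, and for Sco2, which shares 66.2% with Ncaph2 on the opposite strand and 68.3% with Tymp on its own strand. The remaining levels were, from high to low, Cox16 (53.7 TPM), Cox19 (42 TPM), Surf1 (38.3 TPM), Cox18 (29.6 TPM), Cox14 (28 TPM), Cox15 (27.1 TPM), Sco2 (23 TPM), Cox10 (14.5 TPM), Cox11 (10.5 TPM) and Sco1 (10.1 TPM). Cox19 and Surf1, Cox18, Cox14 and Cox15, and Cox11 and Sco1 overlapped as neighbours in their ranges, and the others were separated. Cox17 stood 12.7-fold above Sco1.

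Opti-ELF-WMF and control dishes were compared gene by gene with limma on log2(TPM + 1), with p-values adjusted over all 12122 genes tested. After adjustment none of the 24 reached p below 0.05, and the smallest value was 0.206. None of the 12122 genes passed either (0% called), while 15.6% had an unadjusted p below 0.05, 12% as higher and 3.65% as lower in the exposed dishes. Of the 24 genes, 3 (12.5%) had an unadjusted p below 0.05, a share near that of all genes.

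By class, 1 of 12 structural subunits was higher and 0 were lower at that level, and 0 of 12 assembly factors were higher and 2 were lower. With the libraries rescaled in 4 ways, 0 structural subunits were higher and 3 to 4 assembly factors were lower. Calls over all genes (12103 to 12122 tested) moved the same way, from 1451 higher and 443 lower to 508 to 693 higher and 675 to 819 lower. Without exposed dish 4, 2 structural subunits and 1 assembly factor were higher and 0 assembly factors were lower, beside 1438 higher and 478 lower of all 12122 genes. No gene of the 24 had groups that did not overlap, against 9.87% of all genes tested (8.01% with every exposed dish higher, 1.86% with every exposed dish lower). The log2 differences of the 24 lay between -0.16 and 0.13, and their 95% intervals between -0.48 and 0.29, so that a 2-fold change (1 on the log2 scale) was outside the interval of each.

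**Figure D2:**
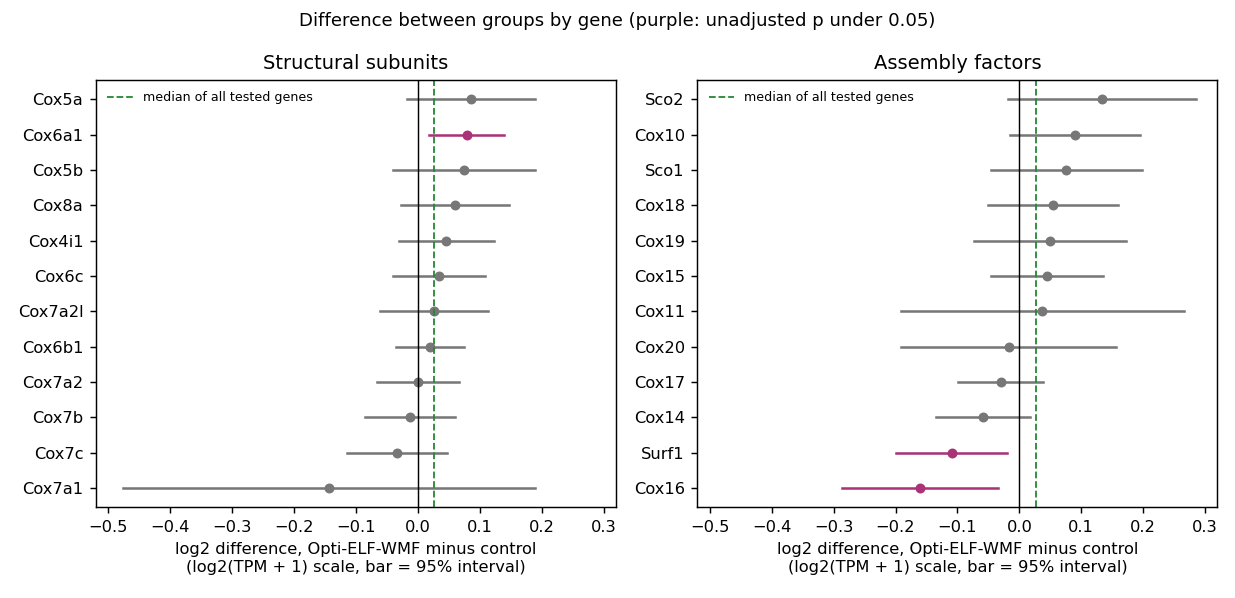
Log2 difference between Opti-ELF-WMF and control dishes (n = 4 per group) for each tested gene, on the log2(TPM + 1) scale, with the 95% interval from limma as a bar. Purple marks an unadjusted p below 0.05 and the dashed line is the median of all tested genes (0.03). Only Cox6a1, Cox16 and Surf1 have intervals that leave out 0, and none of them passed adjustment.

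Cox6a1, a subunit at the contact between the monomers of the enzyme dimer, was the structural subunit with the smallest p (chr5:115345642-115348981, minus strand). Its level was 567, 563, 569 and 596 TPM in the control dishes and 625, 605, 590.2 and 603 TPM in the exposed dishes. Exposed dishes 1, 2 and 4 were above every control dish, and exposed dish 3 was below control dish 4. The group means were 574 ± 15.3 and 606 ± 14.3 TPM (SD, n = 4), a 1.06-fold difference, with a log2 difference of 0.08 (standard error 0.03, unadjusted p = 0.0158, adjusted p = 0.206, limma). It kept an unadjusted p below 0.05 with any 1 dish left out, but not in the 4 settings that rescaled the libraries, where its log2 difference came down to 0.04 (unadjusted p up to 0.149, and adjusted p from 0.199 to 0.626 over all alternatives).

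Cox16, a factor that binds mt-Co1 and mt-Co2 as their modules join, was lower in the exposed dishes (chr12:81359026-81485127, minus strand). It was at 57, 62.9, 51.4 and 55.7 TPM in the control dishes and at 51.1, 52.8, 49.8 and 48.5 TPM in the exposed dishes. Exposed dishes 1, 3 and 4 were below every control dish, and exposed dish 2 was above control dish 3. The means were 56.7 ± 4.77 and 50.6 ± 1.86 TPM (SD, n = 4), a ratio of 0.891, with a log2 difference of -0.16 (standard error 0.06, unadjusted p = 0.0181, adjusted p = 0.216, limma). Its unadjusted p stayed below 0.05 in 13 of 13 alternatives that kept all dishes and rose to 0.0505 only without exposed dish 4, and adjusted p ranged from 0.199 to 0.397. The 13 are not separate checks. Its log2 difference ran from -0.199 to -0.16 over them, because most hardly move it and the rescalings lower all genes.

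The annotated gene Gm20498 covers 56.8% of the exon bases of Cox16 on the same strand, and reads in these bases cannot be told apart. It was at 17 to 22.6 TPM in the control and 15.7 to 19.9 TPM in the exposed dishes. The sum of both genes was 76.6 ± 6.43 TPM (SD, n = 4) in the control and 68.4 ± 2.9 TPM (SD, n = 4) in the exposed dishes, again with overlapping groups.

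Surf1, a factor of early assembly and heme insertion that is known for its loss in Leigh syndrome, was also lower (chr2:26913381-26916530, minus strand). Its level was 40.5, 39.6, 40.5 and 38.4 TPM in the control dishes and 35.6, 38.3, 38.4 and 35 TPM in the exposed dishes. Exposed dishes 1, 2 and 4 lay below every control dish, and exposed dish 3 lay at the level of control dish 4. The means were 39.8 ± 0.989 and 36.8 ± 1.78 TPM (SD, n = 4), a ratio of 0.926, with a log2 difference of -0.11 (standard error 0.04, unadjusted p = 0.0222, adjusted p = 0.229, limma). Its unadjusted p stayed below 0.05 in 13 of 13 alternatives that kept all dishes and in 4 of 8 that left out 1 dish (up to 0.0662), and adjusted p ranged from 0.201 to 0.396. As for Cox16, the 13 are not separate checks, and its log2 difference ran from -0.15 to -0.109 over them.

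The other structural subunits had no p below 0.05. Cox5a and Cox5b, the matrix-side subunits, had log2 differences of 0.09 and 0.07 (adjusted p = 0.411 and 0.528, limma, n = 4 per group). That of Cox5a was 0.05 without control dish 4 and 0.12 without control dish 2, and that of Cox5b was 0.04 without control dish 2 and 0.12 without exposed dish 4. Those of the membrane-spanning Cox6c, Cox7a2, Cox7b and Cox7c were 0.03, 0.00, -0.01 and -0.03, and that of Cox7a2l was 0.03. With 1 dish left out, that of Cox6c ranged from 0.01 to 0.06, that of Cox7c from -0.06 to -0.01 and that of Cox7a2l from 0.00 to 0.05. Exposed dish 2 stood above the other exposed dishes in Cox5a (489.5 TPM against 465 to 468 TPM).

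Of the factors that make heme a, Cox10 was at 14.1 ± 0.596 TPM in the control and 15 ± 0.599 TPM in the exposed dishes (SD, n = 4; log2 difference 0.09, adjusted p = 0.399, limma), and Cox15 at 26.7 ± 1.14 and 27.6 ± 0.788 TPM (0.04, adjusted p = 0.65, limma). Of the copper factors, Sco2 had the largest log2 difference, 0.13 (adjusted p = 0.384, limma), with 21.9 ± 2.32 TPM in the control and 24.1 ± 0.483 TPM in the exposed dishes (SD, n = 4). Control dish 3 (18.7 TPM) lay below the other dishes in Sco2, and without it the log2 difference was 0.06. The exposed dishes (23.7 to 24.7 TPM) overlapped control dish 1 (24.1 TPM). The log2 differences of the copper factors Sco1, Cox11 and Cox19 were 0.08, 0.04 and 0.05. That of Cox11 was -0.05 without control dish 4 and 0.13 without control dish 1, and that of Cox19 was 0.01 without exposed dish 2 and 0.10 without exposed dish 4.

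Cox14, which binds newly made mt-Co1, had 28.6 ± 0.439 TPM in the control and 27.4 ± 0.781 TPM in the exposed dishes (SD, n = 4), with exposed dishes 1, 2 and 3 below every control dish (log2 difference -0.06, adjusted p = 0.444, limma). Its unadjusted p (limma) was below 0.05 in 6 of 13 alternatives that kept all dishes and in 0 of 8 that left out 1 dish. Cox18, which inserts part of mt-Co2 into the membrane, had a log2 difference of 0.05. That of Cox18 was 0.02 without control dish 1 and 0.03 without exposed dish 2.

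The median log2 difference was 0.03 for the 12 structural subunits and 0.04 for the 12 assembly factors, beside 0.03 for all 12122 genes. Of the structural subunits 9 were above 0, of the assembly factors 7, and of all genes 63.7%. These directions are small against the scaling of the libraries. Under upper-quartile scaling the structural median was -0.004 with 5 of 12 above 0, and the unadjusted calls over all genes turned from 1451 higher and 443 lower (76.6% higher) to 588 and 801 (42.3% higher). Median-of-ratios scaling gave 673 and 755 (47.1% higher), and the same split was 693 and 675 (50.7% higher) with TPM rescaled without genes of the mitochondrial genome, 508 and 819 (38.3% higher) when copies of the mt-Co genes were also left out, and 822 and 750 (52.3% higher) with a length and GC correction. The positive sign of Cox6b1, Cox6c, Cox7a2 and Cox7a2l turned negative in at least 1 of these settings, as did that of Cox11 with the length and GC correction. In all alternatives run, Cox5a, Cox5b, Cox6a1, Cox8a, Cox4i1, Cox10, Cox15, Cox18, Cox19, Sco1 and Sco2 stayed above 0 and Cox7a1, Cox7c, Cox14, Cox16, Cox17 and Surf1 below 0. Cox7b and Cox20 changed sign when single dishes were left out.

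**Figure D3:**
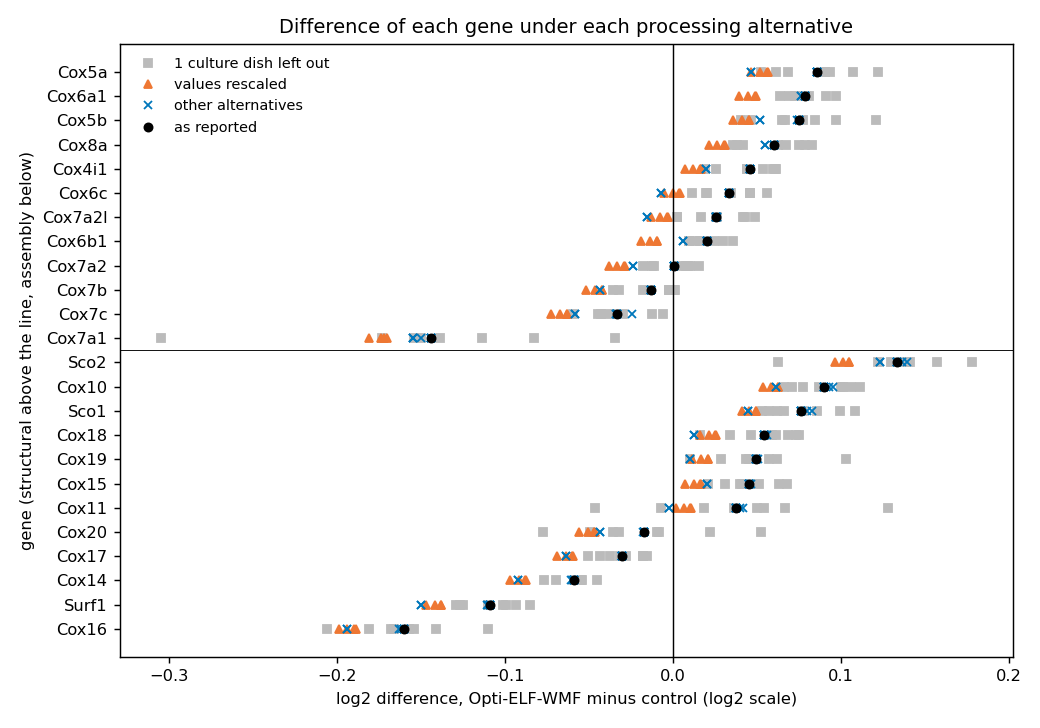
Log2 difference of each tested gene (Opti-ELF-WMF minus control, n = 4 per group) as reported (black), with the libraries rescaled (orange), with 1 dish left out (grey) and under the other alternatives (blue). Rescaling moves all genes downward by about the same amount, so that genes near 0 change sign, while Cox16 and Surf1 stay below 0 and Cox5a and Cox6a1 above 0.

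Dishes of one group differed from each other by about as much as the groups did. The structural subunits had a median coefficient of variation within groups of 3.77% and the assembly factors of 4.82%, against 5.77% for all tested genes. Cox6b1 varied by 2.12% and Cox14 by 2.27%, while Cox7a1 varied by 19.3%, Cox11 by 12.8% and Cox20 by 9.24%. In exposed dish 3, 1 of 12 structural subunits was above the mean of the exposed dishes, beside 5947 of all 12122 genes. The median deviation of the structural subunits was -0.04 on the log2 scale, whereas all tested genes there had a median deviation of -0.002. In exposed dish 2, 10 of 12 assembly factors were above the mean of their group, where most of all genes were as well (8223 of 12122). The median deviation of the assembly factors was 0.06, beside 0.03 for all tested genes.

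The 3 subunits of the same enzyme made in mitochondria had lower mean levels in the exposed dishes, all with an unadjusted p below 0.05 (3.65% of all genes on that side) and none below 0.05 after adjustment. In 2 of them the groups did not overlap (1.86% of all genes on that side). mt-Co1, which holds the site where oxygen is reduced, was at 14714, 14464, 14968 and 14226 TPM in the control dishes and at 11375, 10085, 12049 and 12263 TPM in the exposed dishes. Every exposed dish was below every control dish, and the log2 difference was -0.35 (standard error 0.06, adjusted p = 0.122, limma, n = 4 per group). mt-Co3 was at 1333 to 1561 TPM in the control and 885 to 1285 TPM in the exposed dishes, also without overlap (log2 difference -0.46, adjusted p = 0.122, limma). mt-Co2, the subunit that takes electrons from cytochrome c, was at 605 to 800 TPM in the control and 516 to 622 TPM in the exposed dishes, with overlap (log2 difference -0.27, adjusted p = 0.21, limma).

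The summed mt-Co level divided by the summed structural level was 2.9, 2.94, 3.11 and 2.95 in the control dishes and 2.27, 2, 2.4 and 2.38 in the exposed dishes. The exposed dishes were all lower, with a mean of 2.26 ± 0.187 against 2.98 ± 0.0943 (SD, n = 4), and the nuclear sum alone differed by 2.9% where the mt-Co sum differed by -21.8%. A ratio within a dish does not depend on how the library is scaled, but it shows only that the 2 parts differed unequally. Adding Ndufa4, a further nuclear subunit at 775 to 810 TPM, gave 2.61 ± 0.0743 and 1.99 ± 0.158 (SD, n = 4).

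The nuclear genome holds copies of mt-Co2 and mt-Co3 with 100% identical coding bases, Gm28661 (chr1:24614885-24615565) and Gm28437 (chr1:24613189-24613971), and most of the TPM was listed under these copies. Copies made up 95.3% of the TPM of mt-Co2 with its copies, 89.3% for mt-Co3 and 0.05% for mt-Co1. With copies added, mt-Co2 was at 15607 ± 336 TPM in the control and 12445 ± 1045 TPM in the exposed dishes and mt-Co3 at 12864 ± 460.5 and 10234 ± 878 TPM (SD, n = 4), both without overlap. The ratio to the nuclear subunits was then 7.64 ± 0.221 against 5.89 ± 0.555 (SD, n = 4).

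**Figure D4:**
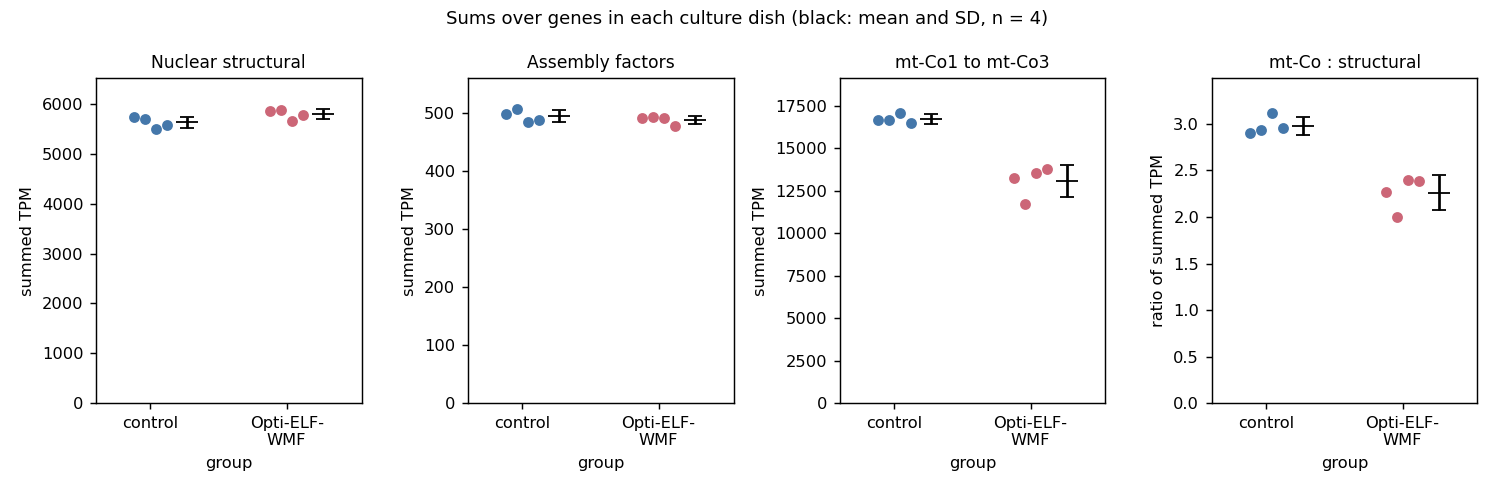
Summed TPM of the nuclear structural subunits, the assembly factors and the mt-Co genes, and the ratio of mt-Co to structural subunits, in each culture dish. Colored points are dishes (4 control, 4 Opti-ELF-WMF) and black bars are mean and SD, with axes from 0. The first 2 sums overlap between groups, and the exposed dishes lie below the control dishes in the mt-Co sum and in the ratio.

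Nuclear subunits also have close copies in the genome, mostly processed pseudogenes. Among the tested genes Cox7c had the largest share of TPM listed under copies, and its coding bases are shown with those of the copy Cox7c-ps1 (GRCm38, chr17:25901856-25902227, plus strand), from GENCODE transcripts, to show how little separates them. Capitals mark the 2 bases of 189 that differ, G30C and G107A, counted from 1 at the first coding base with the Cox7c base first.
Cox7c: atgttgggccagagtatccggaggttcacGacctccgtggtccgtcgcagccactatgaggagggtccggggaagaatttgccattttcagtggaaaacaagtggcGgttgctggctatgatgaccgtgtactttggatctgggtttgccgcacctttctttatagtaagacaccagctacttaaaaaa
Cox7c-ps1: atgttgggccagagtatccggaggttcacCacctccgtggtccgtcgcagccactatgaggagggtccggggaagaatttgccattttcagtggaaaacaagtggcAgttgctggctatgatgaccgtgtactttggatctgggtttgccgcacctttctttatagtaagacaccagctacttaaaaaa

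Cox7c-ps1 was listed at 1.62, 12.9, 0.38 and 6.71 TPM in the control dishes and at 0.97, 15.6, 7.3 and 14.6 TPM in the exposed dishes, and a further copy with 100% identical coding bases, Gm12338, at 0 to 7.36 TPM. Copies held 2.48% of the TPM of Cox7c with its copies. With them added, Cox7c was at 404 ± 19.8 TPM in the control and 397 ± 17 TPM in the exposed dishes (SD, n = 4), and its log2 difference moved from -0.03 to -0.02. Copies of Cox7b held 0.5%, those of Cox5b 0.3% and that of Cox20 0.12%, and copies of Cox5a, Cox6a1 and Cox6c were listed at 0. The match to Cox17, Gm21987, is an annotated gene that overlaps Cox17 on the same strand, not a copy elsewhere, and was also listed at 0.

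Other genes of complex IV and its biogenesis were examined as a list of 32 symbols, of which 29 were in the files and 27 were tested. At an unadjusted p below 0.05, 5 were higher and 3 were lower in the exposed dishes, and 0 had an adjusted p below 0.05 (smallest 0.134). The 8 are 29.6% of the 27, beside 15.6% of all genes (12% higher, 3.65% lower). The number higher was 1 under upper-quartile and median-of-ratios scaling and 2 with TPM rescaled without genes of the mitochondrial genome. The median log2 difference was 0.01, beside 0.03 for all genes. In 3 of the 27 the groups did not overlap, all 3 with the exposed dishes higher, against 8.01% of all genes in that direction.

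Fdx2, a mitochondrial ferredoxin that serves iron-sulfur cluster and heme a synthesis, was at 92.1, 92, 89.1 and 91.5 TPM in the control dishes and at 95.3, 102, 97.4 and 100.2 TPM in the exposed dishes. Every exposed dish was above every control dish (log2 difference 0.11, standard error 0.03, adjusted p = 0.134, limma, n = 4 per group). Coa3, the partner of Cox14 on newly made mt-Co1, was at 153, 153, 146 and 147 TPM in the control dishes and at 166, 157, 157 and 164 TPM in the exposed dishes. It too was higher in every exposed dish (log2 difference 0.10, adjusted p = 0.157, limma), while its partner Cox14 was not.

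Lrpprc, which stabilises mitochondrial mRNAs, was at 49 to 50.8 TPM in the control and 51.6 to 56.2 TPM in the exposed dishes, without overlap (log2 difference 0.08, adjusted p = 0.301, limma, n = 4 per group). Coa5, an assembly factor, and Slc25a3, the carrier that brings phosphate and copper into the matrix, both had a log2 difference of 0.07 with overlapping groups (adjusted p = 0.306 and 0.289, limma). On the lower side were Fastk, a kinase-like RNA-binding protein (-0.18, adjusted p = 0.16, limma), Coa6, which acts in copper delivery to mt-Co2 (-0.11, adjusted p = 0.307, limma), and Atox1, a copper chaperone of the cytosol (-0.09, adjusted p = 0.247, limma), all with overlapping groups. Pet117 and Cyct, the testis cytochrome c, were listed at 0. Rescaling of the libraries kept the sign of these 8 genes but made the differences on the higher side smaller. Over all alternatives Fdx2 ranged from 0.07 to 0.13, Coa3 from 0.06 to 0.11, Lrpprc from 0.04 to 0.09, Coa5 from 0.03 to 0.09, Slc25a3 from 0.03 to 0.08 and Fastk from -0.22 to -0.14.

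**Figure D5:**
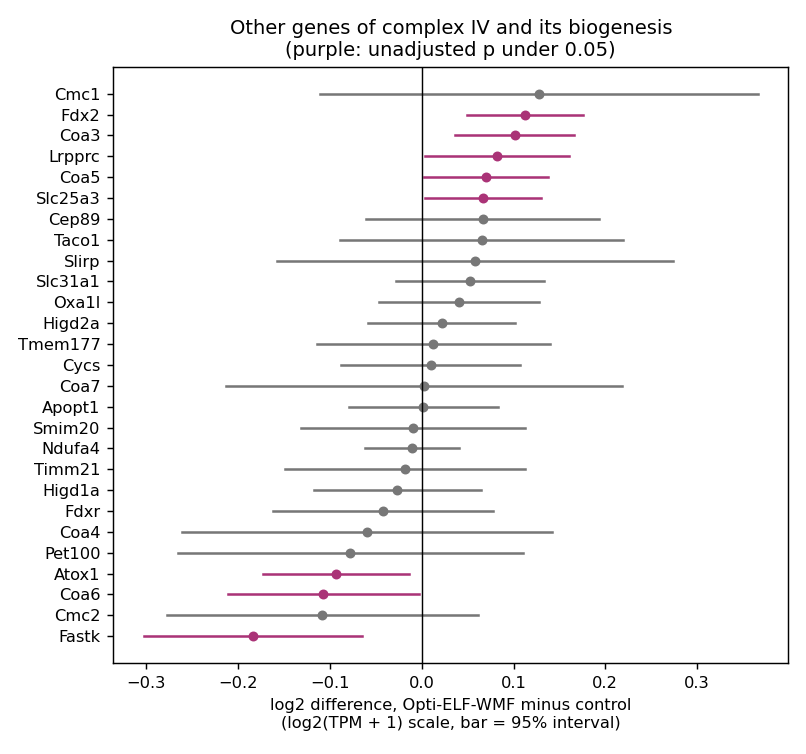
Log2 difference between Opti-ELF-WMF and control dishes (n = 4 per group) for 27 other genes of complex IV and its biogenesis, with the 95% interval from limma as a bar. Purple marks the 8 genes with an unadjusted p below 0.05, of which 5 are on the higher and 3 on the lower side, and none passed adjustment.

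Of 10 transcription factors and coactivators known for respiratory genes, 8 were tested and 0 had an unadjusted p below 0.05, beside 15.6% of all genes, and with 8 genes a count of 0 does not set the list apart. The smallest p on the higher side was that of Gabpb1, a subunit of the ETS factor GABP, at 21 ± 0.265 TPM in the control and 22.1 ± 0.676 TPM in the exposed dishes (SD, n = 4; log2 difference 0.07, adjusted p = 0.4, limma). Yy1 alone was on the lower side, with a log2 difference of -0.001, whose sign turned when single dishes were left out. The coactivators Ppargc1a and Ppargc1b had means below 1 TPM in both groups and were not tested.

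RefSeq promoter windows (GRCm38.p6, 250 bases before to 50 after the start) were matched for 20 of the 24 tested genes and 3 of the 8 untested ones. The tested genes without a window were Cox4i1, Cox6c, Cox17 and Cox18. A single window was used for each gene, the most upstream one available. That of Cox7a2l (chr17:83514284-83514583) lies within the annotated gene (chr17:83501918-83517330). The letters CCGGAAG, which belong to the ETS and GABP motif, were present on either strand in 10 of the 20 (50%), against 20.2% of 9067 tested genes with a window and 9.1% of 27025 windows in all, and in 0 of the 3. The 10 were Cox6a1, Cox6b1, Cox8a, Cox10, Cox14, Cox15, Cox16, Cox20, Sco1 and Surf1. The core of the NRF1 motif, GCGCATGC followed at once by GC, was in Cox6a1 only, as were the letters GCGCATGC by themselves, which lie within the core (2.3% and 5.9% of the tested genes). AAGATGGC, for YY1, was in Cox10 and Cox20 (5.1% of the tested genes), and TCAAGGTCA, for the ERR receptors, in none of the 23 (0.2%).

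These windows are described only, and presence of the letters did not go with 1 direction. Of the 3 genes with an unadjusted p below 0.05, all carry CCGGAAG, Cox6a1 with a level on the higher and Cox16 and Surf1 on the lower side. The median GC content of the 20 windows was 59.7%, beside 61% for tested genes, with 20.5 CpG per window beside 21. The 3 windows of genes below the filter had a median of 48.7% GC and 10 CpG, and all 27025 windows 52.7% and 7. Cox7a1 had 7 CpG and Cox8b, listed at 0, had 2, while Cox7b, at 381 TPM, had 5.

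The 250 bases before the start are printed, on the strand of the gene, for the tested genes Cox6a1 (chr5:115348959-115349208), Cox16 (chr12:81485138-81485387) and Sco1 (chr11:67052420-67052669), which carry the letters, and for the muscle forms Cox7a1 (chr7:30183921-30184170), at a low level here, and Cox8b (chr7:140900447-140900696), listed at 0, which carry none. Cox5a, Cox5b, Cox7a2, Cox7b and Cox7c, at 235 to 459 TPM, have no CCGGAAG in their windows, and Sco1, which has it, was at 10.1 TPM, near Cox7a1 at 9.36 TPM. Capitals mark the NRF1 core and CCGGAAG or its reverse complement CTTCCGG.
Cox6a1: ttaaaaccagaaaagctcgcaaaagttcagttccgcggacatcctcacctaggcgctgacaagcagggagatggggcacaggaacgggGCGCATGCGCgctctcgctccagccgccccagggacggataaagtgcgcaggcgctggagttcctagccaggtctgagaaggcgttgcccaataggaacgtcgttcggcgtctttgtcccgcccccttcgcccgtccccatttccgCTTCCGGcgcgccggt
Cox16: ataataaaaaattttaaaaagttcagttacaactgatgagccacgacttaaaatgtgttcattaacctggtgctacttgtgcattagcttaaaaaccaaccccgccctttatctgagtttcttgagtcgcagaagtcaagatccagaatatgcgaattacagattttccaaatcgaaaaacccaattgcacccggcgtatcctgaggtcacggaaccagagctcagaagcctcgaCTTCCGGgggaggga
Sco1: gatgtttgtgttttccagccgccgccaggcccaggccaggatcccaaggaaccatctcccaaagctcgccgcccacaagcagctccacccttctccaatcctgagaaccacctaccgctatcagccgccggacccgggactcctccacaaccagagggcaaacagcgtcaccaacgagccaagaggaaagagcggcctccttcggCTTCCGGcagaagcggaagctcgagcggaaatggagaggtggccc
Cox7a1: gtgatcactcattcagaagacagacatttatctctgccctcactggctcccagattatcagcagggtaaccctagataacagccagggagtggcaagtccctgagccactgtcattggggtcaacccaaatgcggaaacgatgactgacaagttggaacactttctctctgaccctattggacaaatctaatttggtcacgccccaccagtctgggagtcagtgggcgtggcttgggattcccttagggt
Cox8b: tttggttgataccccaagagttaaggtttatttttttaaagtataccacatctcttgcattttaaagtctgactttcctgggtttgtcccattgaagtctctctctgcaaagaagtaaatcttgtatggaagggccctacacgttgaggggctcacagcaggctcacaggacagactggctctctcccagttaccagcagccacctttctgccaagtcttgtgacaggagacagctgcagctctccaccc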

How the data were processed

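RNA-seq was performed for the authors by a sequencing company on 4 control and 4 Opti-ELF-WMF dishes of AML12 cells, with a stranded mRNA kit and paired-end reads on an Illumina NovaSeq. What the authors deposited is 1 file for each dish, with the TPM of 55401 genes. The submitters' processing notes name Trimmomatic 0.39, STAR 2.7.4a, RSEM 1.3.3 and the genome build mm10. The annotation release and the strand setting are not given in the sources used here. TPM keeps no depth, so no count test, counting interval or detection limit was computed, and the 95% intervals given are those of limma over dishes.

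Genes with at least 1 TPM in at least 4 dishes (12122) were tested with limma 3.58.1 (eBayes with a trend) in R 4.3.3 on log2(TPM + 1), with Benjamini-Hochberg adjustment over all of them. A log2 difference on this scale understates the change of low genes. In simulated data for this comparison with 12122 genes, adjusted p was below 0.05 for 97 of 100 genes changed by 1, 88 of 100 changed by 0.5 and 11 of 11922 unchanged genes (log2 scale). The simulated noise was drawn separately for each gene, without the shifts that genes of a dish share. No change smaller than 0.5 was simulated, so recovery of differences as small as those of the 24 genes (-0.16 to 0.13) was not measured. GENCODE M21 (GRCm38, 55141 identifiers matched) gave positions, overlaps, lengths and GC content. A transcript was taken as a copy where BLAST 2.17.0 found 90% identity or more over 80% or more of the coding bases. Medians, sums, shares, ratios and motif counts are descriptions without a test.

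The genes and lists were chosen with earlier results of these data known. All genes of the group are accounted for. Values in every dish are given for those with an unadjusted p below 0.05 and the 3 most abundant of each class. Genes outside the group were named by the same limit, for the smallest p of their list in a direction, or on other grounds. Those grounds were an overlap with a gene of the group, a near-identical copy, a level below the filter and use as a cell type marker. Ndufa4 was named as a further nuclear subunit for the ratio. Which further genes are shown dish by dish (Cox7a1, Cox7c-ps1, mt-Co1, Fdx2 and Coa3) was chosen after their values were seen. The promoters and coding sequences printed were chosen after their values were seen. Alternatives covered the pseudocount, the filter, scaling, the trend, the replicate number as a block, length and GC content, near-identical copies and leaving out each dish.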

Additional observations from a re-analysis of the deposited data

Results flagged for a closer look

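The highest or lowest of the 4 dishes of a group was compared with the others by Dixon's criterion. The check covered only a part of the genes and sums described here, so a gene not named below was not necessarily checked. Of 110 groups checked, 8 had a dish that stood apart. In 3 of the 8, of Cox6b2 and Cox20b, 1 value stood beside 3 dishes listed at 0, which meets the criterion at any level. Of the 103 groups with every value above 0, 5 had such a dish, where chance gives about 1 in 20, or 5.15. Among the structural subunits, Cox5a was at 489.52 TPM in exposed dish 2, against 465 to 468 TPM in the other exposed dishes. Cox7c with its copies was at 371.63 TPM in exposed dish 3, against 403 to 408 TPM. Cox6b2 was at 0.22 TPM in control dish 2 and listed at 0 in the other control dishes. The pseudogene Cox20b was at 0.43 TPM in control dish 3 and at 0.37 TPM in exposed dish 1, and listed at 0 elsewhere. Of the genes set beside them, mt-Co2 was at 516.39 TPM in exposed dish 3, against 618 to 622 TPM, and mt-Co3 with its copies was at 8931.73 TPM in exposed dish 2, against 10539 to 10850 TPM. Lrpprc was at 56.25 TPM in exposed dish 2, against 51.6 to 52 TPM in the other exposed dishes, and all exposed dishes were above the control dishes.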

How the results depend on the processing

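No tested nuclear cytochrome oxidase gene had an adjusted p below 0.05 under any alternative run. Of the 13 alternatives that kept all dishes, 5 cannot move a log2 difference (filters, trend, block) or repeat another (the block with the correction). In the other 8, 174 of 192 values of the 24 genes kept their sign and 18 did not, and with a dish left out 183 of 192 did and 9 did not. These 8 include the pseudocounts, which hardly move a difference, and the addition of copies, which changes only Cox5b, Cox7b, Cox7c and Cox20. Many of the kept signs could therefore hardly have turned. The 18 turned under the rescalings and the length and GC correction. The depth is unknown, which leaves the counting error of low genes such as Cox7a1 without a limit. The deviations of same-numbered dishes had correlations from -0.0419 to 0.0258, and 0 of 8 dishes correlated best with its own number. The structural subunits had median deviations of 0.024, 0.0146, -0.0209 and -0.0222 in control dishes 1 to 4. In exposed dishes 1 to 4 these were 0.033, 0.0235, -0.0369 and -0.0144, with the same sign for each number. Those of the assembly factors had opposite signs for numbers 1 and 3. The replicate number was used as a block only as an alternative. The causes of the shifts below were not tested.

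Adjusted calls over all genes, 0 as reported, were 1 with at least 1 TPM in every dish, with upper-quartile or median-of-ratios scaling, without a trend and with the mitochondrial genome and mt-Co copies left out, and 0 to 2 with a dish left out. Unadjusted calls (1451 higher, 443 lower) were 588 and 801 under upper-quartile scaling, 673 and 755 under median-of-ratios scaling, 693 and 675 without the mitochondrial genome, 508 and 819 without it and the copies (an alternative chosen after seeing the data, like the addition of copies), 822 and 750 with the length and GC correction and 789 and 726 with that correction and the replicate block. They were 1733 and 832 of 25413 genes without a filter, and 1066 to 1625 higher and 330 to 513 lower with a dish left out. With the replicate block they were 1430 and 459.

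Structural subunits with an unadjusted p below 0.05 (1 higher, 0 lower) were 0 higher under the 4 rescalings and 2 with the replicate block (Cox5a and Cox6a1). With a dish left out they were 1 to 2 higher and 0 to 1 lower: 2 higher without control dish 2 (Cox5a added) or exposed dish 4 (Cox5b added), and 1 lower without control dish 1 (Cox7a1). Assembly factors (0 higher, 2 lower) were 4 lower under upper-quartile and median-of-ratios scaling, without the mitochondrial genome and copies, and with the length and GC correction, with Cox14 and Cox17 added. In these settings 750 to 819 of all tested genes were lower, against 443 as reported. With a dish left out they were 0 to 1 higher (Sco2 without control dish 1, Cox19 without exposed dish 4) and 0 to 2 lower, with 1 lower without control dish 1 or 3 or exposed dish 1 (Surf1 lost), and 0 without exposed dish 4.

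The structural median (0.0296) was -0.00397 under upper-quartile scaling, 0.000357 under median-of-ratios scaling and -2.39e-05 without the mitochondrial genome. It was -0.00926 without the mitochondrial genome and copies, -0.000737 with the length and GC correction, and 0.0173 to 0.0513 with a dish left out. The assembly median (0.0412) was 0.00944, 0.0135, 0.0133 and 0.00457 under the 4 rescalings, 0.00399 with the length and GC correction, and 0.0108 to 0.051 with a dish left out. The median of all genes (0.0263) was -0.0053, -0.00125, -0.00153 and -0.0102 under upper-quartile scaling, median-of-ratios scaling, without the mitochondrial genome, and without it and the copies. The other complex IV genes (5 higher, 3 lower, median 0.00989) had 1, 1, 2 and 1 higher and medians of -0.0237, -0.0194, -0.0198 and -0.029 in the same settings. They had 2 higher and a median of -0.015 with the length and GC correction, with or without the block, 3 higher with the block, and 2 higher and 1 lower without a trend. With a dish left out they had 2 to 4 higher, with 3 or fewer without control dish 2 or 4 or exposed dish 2, 3 or 4, and 1 to 3 lower, with 1 lower without control dish 2 or 4 or exposed dish 3 or 4. The difference in the ratio of mt-Co to structural subunits (-0.714, or -24% of the control ratio) was -1.75 with copies added, which raise the ratio itself (-23%), and -0.761 to -0.626 with a dish left out.

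Signs turned, in the order upper-quartile, median-of-ratios, without the mitochondrial genome, and without it and the copies, for Cox6b1 (-0.0138, -0.00941, -0.0098, -0.0191), Cox7a2 (-0.0331, -0.0287, -0.0291, -0.0384) and Cox7a2l (-0.00761, -0.0033, -0.00368, -0.0129), and for Cox6c under the first (-0.000336) and the last (-0.00563). With the length and GC correction, with or without the replicate block, they turned for Cox6c (-0.00738), Cox7a2 (-0.0239), Cox7a2l (-0.0154) and Cox11 (-0.00222). With a dish left out, the ranges that crossed 0 were those of Cox7b (-0.0358 to 0.000939), Cox7a2 (-0.0179 to 0.0156), Cox20 (-0.0777 to 0.0526), Cox11 (-0.0464 to 0.128) and Yy1 (-0.025 to 0.0128). Ranges that kept their sign included 0.00955 to 0.0358 for Cox6b1, -0.0504 to -0.0157 for Cox17 and 0.0209 to 0.068 for Cox15.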
